A study of Mus musculus with 9 samples.

Results

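Interferon-stimulated genes were followed in regulatory T cells (Tregs) of the mouse gut. The list held 44 genes, chosen by name, with the guanylate-binding proteins of the Gbp family left out. A gene was read from the array features that the platform annotation assigns to it alone, and the brightest was kept where there were several. Of the 44, 41 had such a feature and 38 were bright enough to test, out of 22180 genes with a feature of their own and 12792 genes tested.

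The RNA came from Tregs of the intestinal lamina propria, small and large intestine together. Red fluorescence from a reporter tied to Foxp3 defined the sort, so every group carries that reporter. WT, Y3 and Y3/CD103-/- mice, all labelled C57BL/6, gave 3 Affymetrix mouse Gene ST2.0 arrays each. The labels do not describe the Y3 genotype (the series title names IL-2Rβ, a chain of the interleukin-2 receptor, and CD103, the integrin chain encoded by Itgae), and they give no age, no promoter or cell type for any transgene, and no word on whether an array is 1 animal or a pool. With no group that lacks CD103 alone, loss of CD103 could be compared only within Y3 mice. If the 3 arrays of a group are not separate animals, the p-values measure technical spread only.

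Interferons signal through 3 receptor types. Type I interferons and type III interferons activate a complex that holds STAT2 and IRF9 and binds interferon-stimulated response elements (ISRE). Interferon-γ, the type II interferon made by activated T cells and NK cells, acts on genes through gamma-activated sequences (GAS). The induced genes encode sensors of foreign nucleic acid, proteins that block steps of virus growth, GTPases that attack the vacuoles of intracellular pathogens, and parts of the machinery that loads peptides on MHC class I. In the gut, commensal microbes maintain a basal interferon tone, and Tregs express receptors for both type I and type II interferon.

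RefSeq promoters of the GRCm38.p6 build, each running from 250 bases before to 50 after a gene start, were found for 33 of the 44 genes, 40 promoters in all. An ISRE core, GAAANNGAA on either strand, occurred in 19 of the 40 (47.5%), against 2812 of 32851 promoters of all genes (8.6%). A GAS core, TTCNNNGAA, which reads alike on both strands, occurred in 10 of the 40 (25.0%), against 8.3% of all promoters. More than 1 ISRE core stood in 25.0% of the 40 and in 0.62% of all promoters, and both cores together in 15% and 1.07%. Cores that overlapped were each counted. Counted by gene, 18 members had an ISRE core, 10 a GAS core, 6 both and 11 neither. These are matches of letters and not measured binding. The bases before the start of Ifih1 (chr2:62646256-62646505, minus strand), Isg15 (chr4:156200819-156201068, minus strand) and Ifit1 (chr19:34640639-34640888, plus strand) are shown because these genes recur in the comparisons below, with every core in capitals. The stretches of Igtp (chr11:58199491-58199550, plus strand) and Irgm2 (chr11:58214882-58214941, plus strand), neighbouring genes of the same GTPase family, are shown for their paired cores.
Ifih1: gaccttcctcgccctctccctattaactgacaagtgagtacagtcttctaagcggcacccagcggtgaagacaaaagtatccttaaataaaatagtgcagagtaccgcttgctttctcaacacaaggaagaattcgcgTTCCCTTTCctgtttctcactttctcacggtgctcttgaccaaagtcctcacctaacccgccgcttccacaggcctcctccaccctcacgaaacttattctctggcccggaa
Isg15: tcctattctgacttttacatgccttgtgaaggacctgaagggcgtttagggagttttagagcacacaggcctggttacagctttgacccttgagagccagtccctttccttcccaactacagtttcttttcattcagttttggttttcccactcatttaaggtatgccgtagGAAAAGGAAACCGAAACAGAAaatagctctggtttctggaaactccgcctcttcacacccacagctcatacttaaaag
Ifit1: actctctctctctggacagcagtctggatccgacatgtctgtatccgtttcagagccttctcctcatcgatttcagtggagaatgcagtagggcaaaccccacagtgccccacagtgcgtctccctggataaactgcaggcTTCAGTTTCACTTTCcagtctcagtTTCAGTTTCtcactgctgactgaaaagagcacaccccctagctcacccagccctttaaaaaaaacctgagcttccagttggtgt
Igtp: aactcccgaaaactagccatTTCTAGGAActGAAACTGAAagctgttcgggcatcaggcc
Irgm2: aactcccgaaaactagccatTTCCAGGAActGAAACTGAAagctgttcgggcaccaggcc
In Isg15 the 3 ISRE cores begin 78, 72 and 66 bases before the start and overlap in 1 run. Those of Ifit1 begin 109, 103 and 84 bases before it and read on the strand opposite to the gene. Ifih1 has 1 core 112 bases before the start, also on the opposite strand, and 1 at position 33 after it, outside the stretch shown. The Igtp and Irgm2 stretches share 58 of 60 bases, and in both the GAS core begins 11 bases ahead of the ISRE core.

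The values are log2 signals, so a difference of 1 is 2-fold. A gene was said to rise or fall at a Benjamini-Hochberg adjusted p under 0.05 in limma, adjusted over all 12792 tested genes. Signals of different genes come from different probes and were not set against each other. As checks of the labels, Itgae differed by 1.40 (SE 0.21, adjusted p = 0.017) between Y3 and WT and by -2.81 (SE 0.21, adjusted p = 0.00068) between Y3/CD103-/- and Y3, and Foxp3 lay between 9.29 and 9.69 on every array. Il2rb differed by -1.04 in both Y3 groups against WT and did not pass (adjusted p = 0.057 and 0.059). The Itgae call in Y3 was lost without WT replicate 2 or 3 (adjusted p = 0.056 and 0.0501) and without Y3 replicate 1 or 3 (adjusted p = 0.093 and 0.111). Y3 arrays 1 and 3 had the widest spread of values, with a standard deviation (SD) of 1.87 and 1.88 over all features against 1.70 to 1.77 on the other 7 arrays. They were also the most alike (r = 0.98 over the tested genes, against 0.94 for the least alike pair). The median difference of all tested genes was 0.15 for Y3 versus WT, 0.037 for Y3/CD103-/- versus WT and -0.10 for Y3/CD103-/- versus Y3, so member differences are also given relative to it.

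In Y3 against WT, none of the 38 tested interferon-stimulated genes passed the adjusted threshold in limma, with 0.79% of all genes called. The member of smallest adjusted p was Ifih1 (0.079). At an unadjusted p under 0.05, 9 members were higher and 0 lower, that is 23.7% and 0% of the 38, where 13.4% of all genes were higher and 3.6% lower. The 9 were Ifih1, Iigp1, Parp14, Dhx58, Psmb9, Zbp1, Eif2ak2, Adar and Ifit1. The sign was positive for 29 members and negative for 9, where it was positive for 70.5% of all genes. The median difference was 0.16, which is 0.010 above the median of all genes. That margin ran from -0.014 (without Y3 replicate 3; -0.011 without Y3 replicate 1) to 0.14 (without Y3 replicate 2) with single arrays left out, and was -0.038 after quantile normalization. The members' own median was -0.0072 with each array centred on its own median and 0.33 without Y3 replicate 2.

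In Y3/CD103-/- against WT, again none of the 38 passed, with 0.836% of all genes called. Parp14 had the smallest adjusted p (0.155). At an unadjusted p under 0.05, 4 members were higher (Parp14, Isg15, Dhx58 and Eif2ak2) and 1 was lower (Sp100), or 10.5% and 2.63%, near the 7.9% and 5.35% of all genes. The sign was positive for 17 members and negative for 21, where it was positive for 55.1% of all genes. The median difference was -0.061, and it turned positive without WT replicate 1 (0.028) or Y3/CD103-/- replicate 3 (0.028).

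In Y3/CD103-/- against Y3, none of the 38 passed, and 0.00782% of all genes, the single gene Itgae, did. The smallest adjusted p was that of Ifih1 (0.308). At an unadjusted p under 0.05, 0 members were higher and 7 lower (Ifih1, Sp100, Ifit1, Herc6, Trim30a, Iigp1 and Adar), or 18.4%, where 1.78% of all genes were higher and 8.12% lower. That count of 7 was 3 without Y3 replicate 1, 2 without Y3 replicate 3, 4 without Y3/CD103-/- replicate 1, 2 after quantile normalization and 1 with each array centred on its median. The sign was negative for 31 members and positive for 7, where it was positive for 33.8% of all genes. The median difference was -0.20, and relative to the median of all genes it was -0.10. That margin ran from -0.19 (without Y3/CD103-/- replicate 2) to -0.022 (without Y3/CD103-/- replicate 3) with single arrays left out, and was -0.039 without Y3/CD103-/- replicate 1 and -0.18 without Y3 replicate 2. This comparison and that of Y3 with WT share the Y3 arrays, so a gene that is high on those arrays appears in both.

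**Figure D1:**
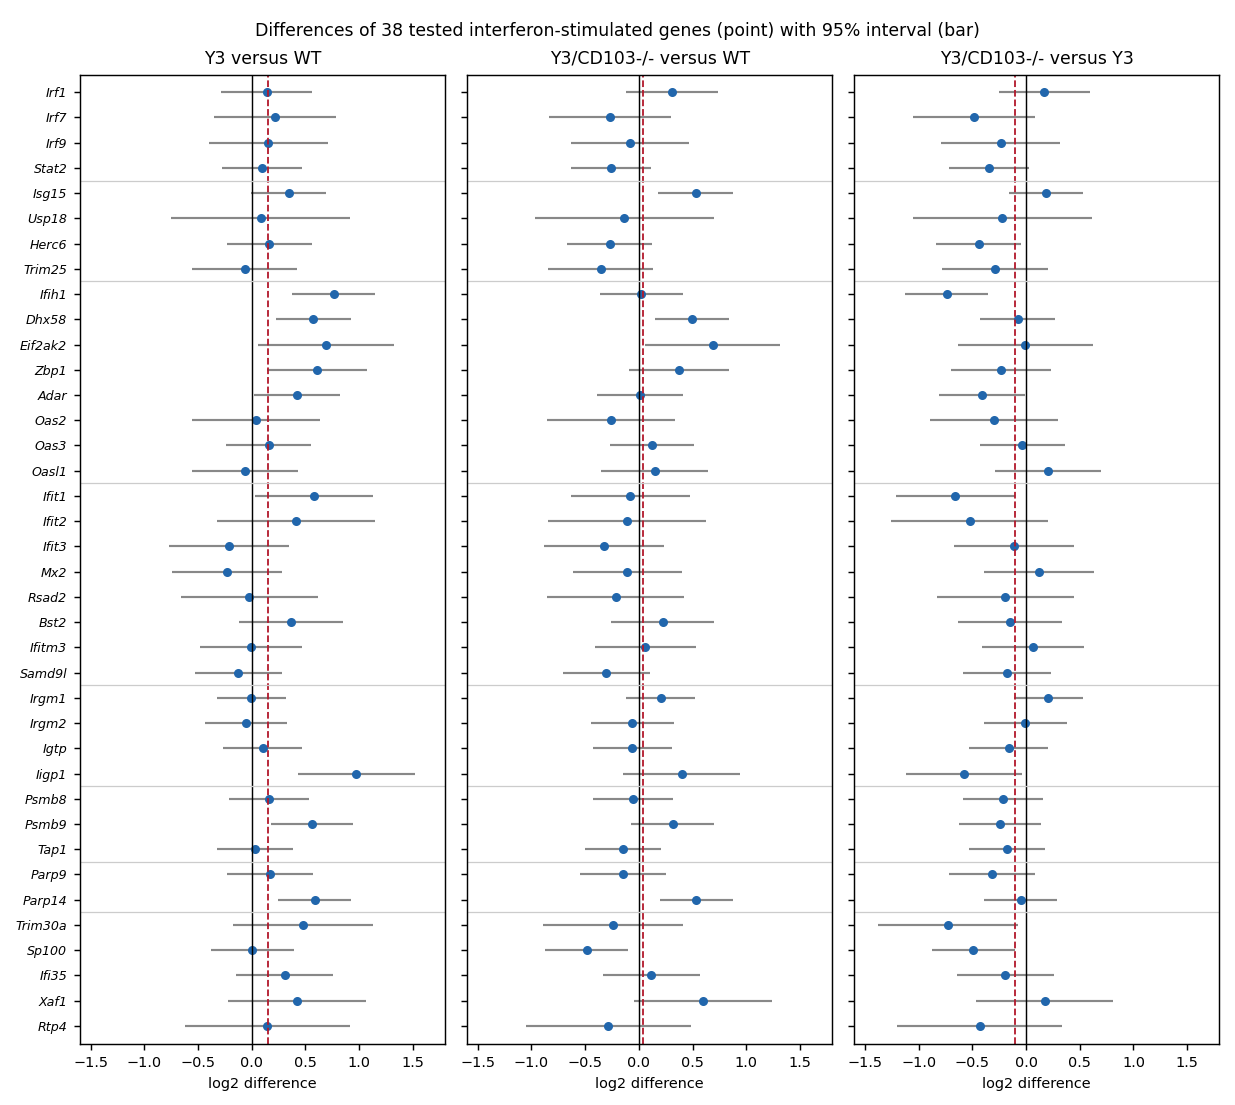
Log2 difference (point, horizontal axis) of each of the 38 tested members with its 95% interval (bar) in the 3 comparisons, in order of role; the solid line marks 0 and the dashed line the median of all 12792 tested genes. The Y3 versus WT points of Ifih1, Iigp1, Parp14 and Dhx58 and the Y3/CD103-/- versus Y3 point of Ifih1 lie farthest from the line at 0 in units of their interval, and no member passed the adjusted test.

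The precision of 9 arrays bounds most of these differences. The 95% interval of the difference lay within 1 of 0, that is within a 2-fold change either way, for 30 of the 38 members in Y3 versus WT, 35 in Y3/CD103-/- versus WT and 30 in Y3/CD103-/- versus Y3. As shares these are 78.9%, 92.1% and 78.9%, against 84.0%, 86.0% and 88.5% of all genes. In the first comparison the interval of Iigp1 reached 1.52, that of Eif2ak2 1.32 and that of Ifih1 1.15. Those of Ifit2, Trim30a, Ifit1, Zbp1 and Xaf1 reached 1.15, 1.13, 1.13, 1.07 and 1.06. For those genes a change above 2-fold lies inside the interval. Arrays of 2 groups without overlap were common among all genes. Y3 lay wholly above WT for 8 of the 38 members and wholly below for 0. Of all 12792 tested genes, 2432 lay above and 631 below. For Y3/CD103-/- against WT these counts were 4 and 3, and 1374 and 855. For Y3/CD103-/- against Y3 they were 0 and 6, and 526 and 1848. Separation of the arrays is therefore not particular to the members.

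**Figure D2:**
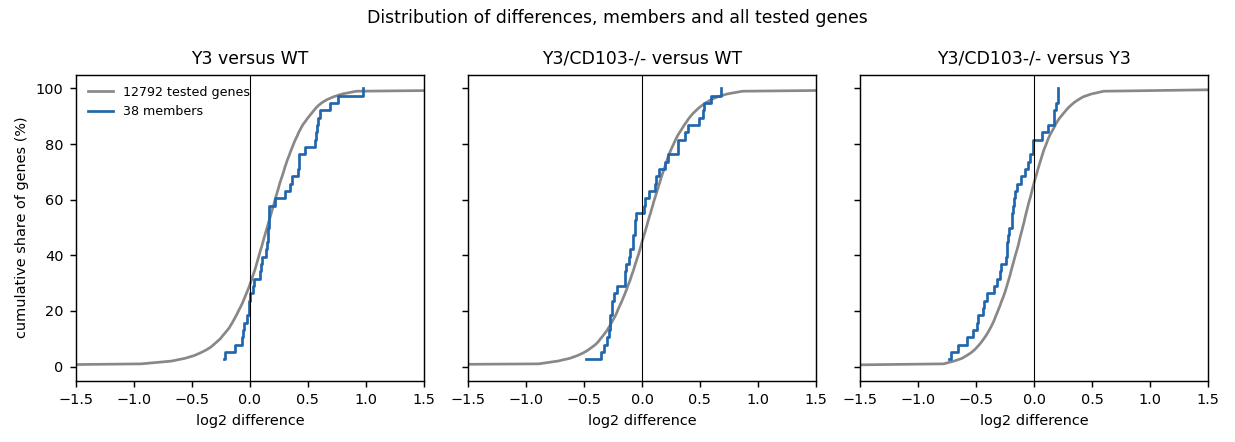
Cumulative share of genes (vertical axis, %) at or below each log2 difference (horizontal axis) for the 38 tested members (blue steps) and all 12792 tested genes (grey), 1 panel per comparison. In Y3 versus WT the member curve lies to the right of the grey curve over most of its length. It meets the grey curve only near the middle, where the medians are 0.16 and 0.15. In Y3/CD103-/- versus Y3 the member curve lies to the left over most of its length, with medians of -0.20 and -0.10.

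The sensors and enzymes that act on nucleic acid held 5 of the 9 members that were higher in Y3 at an unadjusted p under 0.05. Of the 9 on the list 8 were tested, so the 5 are 62.5% of them, against 13.4% of all genes. The role groups were chosen with earlier results of these data known, so that share is a description and not a test of the group. The 8 had a median difference of 0.50 in Y3 against WT (0.35 above the median of all genes), 0.13 in Y3/CD103-/- against WT and -0.16 in Y3/CD103-/- against Y3. Ifih1 encodes MDA5, a cytosolic sensor of long double-stranded RNA. Its signal was 5.32, 5.40 and 5.19 on the WT arrays, 5.96, 5.90 and 6.33 on the Y3 arrays and 5.34, 5.11 and 5.53 on the Y3/CD103-/- arrays. All 3 Y3 arrays lay above all 6 others, and the WT and Y3/CD103-/- arrays overlapped. Ifih1 differed by 0.76 between Y3 and WT (SE 0.18, 95% interval 0.38 to 1.15, adjusted p = 0.079) and by -0.74 between Y3/CD103-/- and Y3 (SE 0.18, adjusted p = 0.308). Its difference between Y3/CD103-/- and WT was 0.023 with a 95% interval of -0.36 to 0.41. With genes required above the median on all 9 arrays, Ifih1 passed in Y3 against WT (adjusted p = 0.040), and it also passed with array weights (0.047) and with a trended, robust prior (0.031). Its adjusted p ran from 0.031 to 0.313 over the 20 alternatives.

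Dhx58 encodes LGP2, which assists MDA5 and cannot signal alone. It read 3.64, 3.37 and 3.30 in WT, 3.99, 3.99 and 4.05 in Y3 and 3.74, 4.03 and 4.03 in Y3/CD103-/-. Every array of both Y3 groups lay above every WT array. The difference from WT was 0.57 in Y3 (SE 0.16, adjusted p = 0.118) and 0.50 in Y3/CD103-/- (SE 0.16, adjusted p = 0.193), and the difference between the Y3 groups was -0.078 with a 95% interval of -0.43 to 0.27. The comparisons with WT share the WT arrays. Eif2ak2 encodes PKR, a kinase that stops translation on binding double-stranded RNA. Its WT arrays read 3.50, 4.48 and 4.55, its Y3 arrays 4.72, 4.79 and 5.07 and its Y3/CD103-/- arrays 4.44, 5.17 and 4.97. WT replicate 1 stood about 1 below the other WT arrays. The differences from WT were 0.69 in each Y3 group (SE 0.29, adjusted p = 0.256 in Y3 and 0.327 in Y3/CD103-/-), and without WT replicate 1 each was 0.35. The highest values of Eif2ak2 with single arrays left out were 0.88 in Y3 (without WT replicate 3) and 0.90 in Y3/CD103-/- (without its replicate 1).

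Zbp1 encodes a sensor of Z-form nucleic acid that can trigger necroptosis. It read 6.80, 6.29 and 6.09 in WT, 7.03, 6.73 and 7.25 in Y3 and 6.70, 6.94 and 6.67 in Y3/CD103-/-. WT replicate 1 lay inside the range of Y3/CD103-/- and above the lowest Y3 array. Zbp1 differed by 0.61 between Y3 and WT (SE 0.21, adjusted p = 0.199). Adar encodes an RNA-editing enzyme that keeps the cell's own double-stranded RNA from being sensed. It differed by 0.42 between Y3 and WT (adjusted p = 0.270), with no overlap of the arrays, and by -0.41 between Y3/CD103-/- and Y3 (adjusted p = 0.492). The oligoadenylate synthetase genes Oas2 and Oas3, whose products switch on RNase L, differed from WT by 0.039 and 0.16 in Y3, and Oasl1, a relative without that activity, by -0.062. Oasl2 was too dim to test, at 2.60 to 3.31 over the 9 arrays.

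None of the 4 factors that carry the interferon signal into the nucleus passed in any comparison. Irf1, the interferon-γ-induced activator, read 5.72, 5.14 and 5.85 in WT, 5.74, 5.68 and 5.69 in Y3 and 5.92, 5.97 and 5.73 in Y3/CD103-/-. The groups overlapped except for WT replicate 2, which stood below all other arrays. Irf1 differed from WT by 0.14 in Y3 (adjusted p = 0.743) and by 0.31 in Y3/CD103-/- (adjusted p = 0.534). Irf7, the amplifier of type I interferon production, and Irf9 and Stat2, subunits of the ISRE-binding complex, differed between Y3 and WT by 0.21, 0.15 and 0.093. In Y3/CD103-/- against Y3 they differed by -0.49, -0.24 and -0.35 (adjusted p = 0.549, 0.777 and 0.523). Stat2 read 5.69, 5.45 and 5.30 in WT, 5.33, 5.71 and 5.68 in Y3 and 5.28, 5.27 and 5.12 in Y3/CD103-/-. The 3 Y3/CD103-/- arrays lay below the 6 others, by little in the case of WT replicate 3 and Y3 replicate 1, and the difference from WT was -0.26 (adjusted p = 0.558).

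ISG15 is a ubiquitin-like modifier, which HERC6 attaches to proteins in mice and USP18 removes, and TRIM25 is a ubiquitin ligase of the RIG-I pathway. Isg15 read 5.96, 6.16 and 6.18 in WT, 6.64, 6.32 and 6.36 in Y3 and 6.51, 6.62 and 6.75 in Y3/CD103-/-. All 6 arrays of the Y3 groups lay above the 3 WT arrays. The difference from WT was 0.34 in Y3 (SE 0.16, adjusted p = 0.301) and 0.53 in Y3/CD103-/- (SE 0.16, adjusted p = 0.172), and that between the Y3 groups was 0.19 (95% interval -0.16 to 0.53). Herc6 read 5.73, 5.61 and 5.65 in WT, 5.73, 5.80 and 5.96 in Y3 and 5.19, 5.76 and 5.23 in Y3/CD103-/-. Its 2 lowest arrays were both of Y3/CD103-/-, while the third lay among the Y3 arrays. Herc6 differed by -0.44 between Y3/CD103-/- and Y3 (SE 0.18, adjusted p = 0.468). Usp18, a brake on the type I receptor, varied more within groups than between them, from 2.84 to 4.16 over the 9 arrays, and Trim25 differed by -0.066 between Y3 and WT and by -0.36 between Y3/CD103-/- and WT (adjusted p = 0.898 and 0.534).

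**Figure D3:**
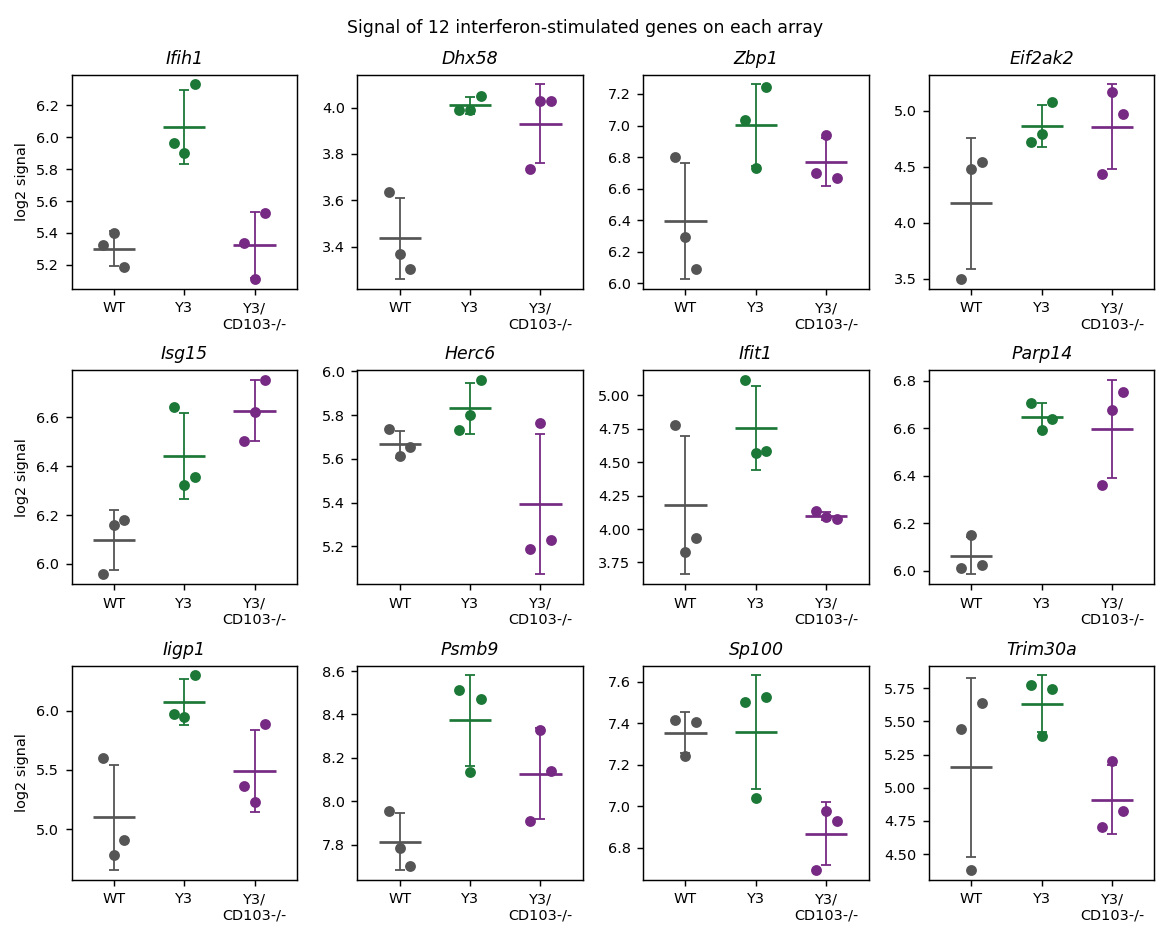
Log2 signal (vertical axis, scaled per gene) of 12 members on each array (points), by group, with the group mean (horizontal line) and SD over 3 arrays (error bar). Ifih1 was high on the Y3 arrays alone, Dhx58, Isg15 and Parp14 were above WT on the arrays of both Y3 groups, and Sp100 was lowest on the 3 Y3/CD103-/- arrays. Y3 lay wholly above WT for 8 of the 38 members and for 2432 of all 12792 tested genes.

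Of the 10 listed genes whose proteins act on virus growth directly, 8 were tested and none passed. The sign was positive for 3 and negative for 5 in Y3 against WT, where it was positive for 70.5% of all genes. The median differences were -0.015, -0.11 and -0.16 in the order of the comparisons above. IFIT1 binds viral RNA that lacks the cap methylation of the host. Ifit1 read 4.78, 3.83 and 3.93 in WT, 5.12, 4.57 and 4.58 in Y3 and 4.14, 4.09 and 4.08 in Y3/CD103-/-. The Y3 arrays all lay above those of Y3/CD103-/-, and WT replicate 1 lay among them. The difference was 0.58 between Y3 and WT (SE 0.25, adjusted p = 0.273) and -0.66 between Y3/CD103-/- and Y3 (SE 0.25, adjusted p = 0.451). Ifit3, a partner of IFIT1, read 5.67, 5.20 and 5.93 in WT, 5.61, 5.29 and 5.25 in Y3 and 5.72, 4.81 and 5.29 in Y3/CD103-/-. The 3 groups overlapped, and its difference between Y3 and WT was -0.21 with a 95% interval of -0.77 to 0.35. Its neighbour Ifit2 differed by 0.41 in the same comparison (95% interval -0.32 to 1.15), so these genes of 1 family had opposite signs without either passing.

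Bst2 encodes tetherin, which holds budding virus on the cell surface, and Ifitm3 a membrane protein that blocks virus entry. They differed between Y3 and WT by 0.37 and -0.0061 (adjusted p = 0.413 and 0.991). Rsad2, which encodes viperin, and Samd9l, an inhibitor of translation, differed by -0.024 and -0.13. Mx2 differed by -0.23, and Mx1 was too dim to test at 1.49 to 2.92. Both Mx genes are defective in most laboratory strains, C57BL/6 among them. Cmpk2, the neighbour of Rsad2 and a mitochondrial nucleotide kinase, was also too dim, at 2.60 to 4.04, with its highest value on WT replicate 1.

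The immunity-related GTPases, which interferon-γ induces strongly and which attack pathogen vacuoles, included the member of largest difference in Y3. Iigp1 read 5.60, 4.78 and 4.91 in WT, 5.97, 5.95 and 6.30 in Y3 and 5.37, 5.23 and 5.89 in Y3/CD103-/-. The Y3 arrays lay above all others, though only just above the highest Y3/CD103-/- array. Iigp1 differed by 0.97 between Y3 and WT (SE 0.25, 95% interval 0.43 to 1.52, adjusted p = 0.10), by 0.40 between Y3/CD103-/- and WT (adjusted p = 0.532) and by -0.58 between Y3/CD103-/- and Y3 (SE 0.25, adjusted p = 0.479). Without WT replicate 1, the highest WT array, the first of these became 1.23 and passed (adjusted p = 0.042), as it did at 0.97 with the trended, robust prior (0.033), within a range of 0.033 to 0.354. Igtp, which encodes IRGM3, read 7.65, 7.72 and 7.65 in WT, 7.77, 7.69 and 7.87 in Y3 and 7.32, 7.85 and 7.67 in Y3/CD103-/-. It differed by 0.10 between Y3 and WT with a 95% interval of -0.26 to 0.47. Irgm1 and Irgm2, regulators of the other GTPases, differed by -0.0050 and -0.054, and their intervals also lay within 1 of 0.

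Among the genes of MHC class I antigen processing, Psmb9 and Psmb8 encode catalytic subunits of the immunoproteasome and Tap1 one chain of the peptide transporter. Psmb9 read 7.96, 7.79 and 7.70 in WT, 8.51, 8.13 and 8.47 in Y3 and 7.91, 8.33 and 8.14 in Y3/CD103-/-. The Y3 arrays lay above those of WT, and the Y3/CD103-/- arrays overlapped both. Psmb9 differed by 0.56 between Y3 and WT (SE 0.17, adjusted p = 0.159), and passed with the trended, robust prior (adjusted p = 0.031, in a range of 0.031 to 0.453). Psmb8 and Tap1, which lie beside it in the gene order of the reference table, differed by 0.16 and 0.029 (adjusted p = 0.647 and 0.942).

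PARP14 is an ADP-ribosyltransferase, and PARP9 with its ligase partner DTX3L acts in DNA repair and interferon signalling. Parp14 read 6.01, 6.15 and 6.02 in WT, 6.71, 6.59 and 6.64 in Y3 and 6.36, 6.68 and 6.75 in Y3/CD103-/-. Both Y3 groups lay wholly above WT and overlapped each other. The difference from WT was 0.58 in Y3 (SE 0.15, adjusted p = 0.107) and 0.53 in Y3/CD103-/- (SE 0.15, adjusted p = 0.155), with a difference of -0.049 between the Y3 groups (95% interval -0.39 to 0.29). Parp14 passed in Y3 with array weights (adjusted p = 0.049) and with the trended, robust prior (0.036), within a range of 0.036 to 0.337 over the alternatives. Parp9 differed by 0.17, -0.15 and -0.32 in the 3 comparisons. Dtx3l had only a feature that also names Parp9, which differed by 0.24, -0.031 and -0.28.

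The remaining induced genes have varied roles. SP100 is a component of nuclear bodies. Sp100 read 7.42, 7.24 and 7.41 in WT, 7.50, 7.04 and 7.53 in Y3 and 6.69, 6.98 and 6.93 in Y3/CD103-/-. The 3 Y3/CD103-/- arrays lay below all 6 others, by little in the case of Y3 replicate 2. It differed by -0.49 from WT (SE 0.17, adjusted p = 0.255) and by -0.49 from Y3 (SE 0.17, adjusted p = 0.433). The mouse genome holds copies related to this gene, and its other 3 features disagreed, with differences of -0.78, 0.23 and -0.17 from WT and of -0.50, 0.12 and -0.093 from Y3.

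Trim30a, a restrainer of NF-κB signalling, read 5.44, 4.38 and 5.64 in WT, 5.77, 5.39 and 5.74 in Y3 and 4.71, 5.20 and 4.83 in Y3/CD103-/-. The Y3 arrays lay above those of Y3/CD103-/-, and WT spanned both. Its difference between Y3/CD103-/- and Y3 was -0.72 (SE 0.30, adjusted p = 0.469). Xaf1, a proapoptotic antagonist of XIAP, read 5.44, 5.02 and 6.13 in WT, 5.72, 5.87 and 6.26 in Y3 and 5.70, 6.48 and 6.19 in Y3/CD103-/-. The groups overlapped, and the difference between Y3/CD103-/- and WT was 0.59 (SE 0.29, adjusted p = 0.414). It ran from 0.34 (without WT replicate 2) to 0.89 (without WT replicate 3) with single arrays left out. Ifi35 and Rtp4, a chaperone of G-protein-coupled receptors, differed between Y3 and WT by 0.31 and 0.15. Ifi27l2a had only a feature shared with Ifi27l2b, which differed by 0.32, 0.11 and -0.22 in the 3 comparisons, and Ifi44 had none.

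**Figure D4:**
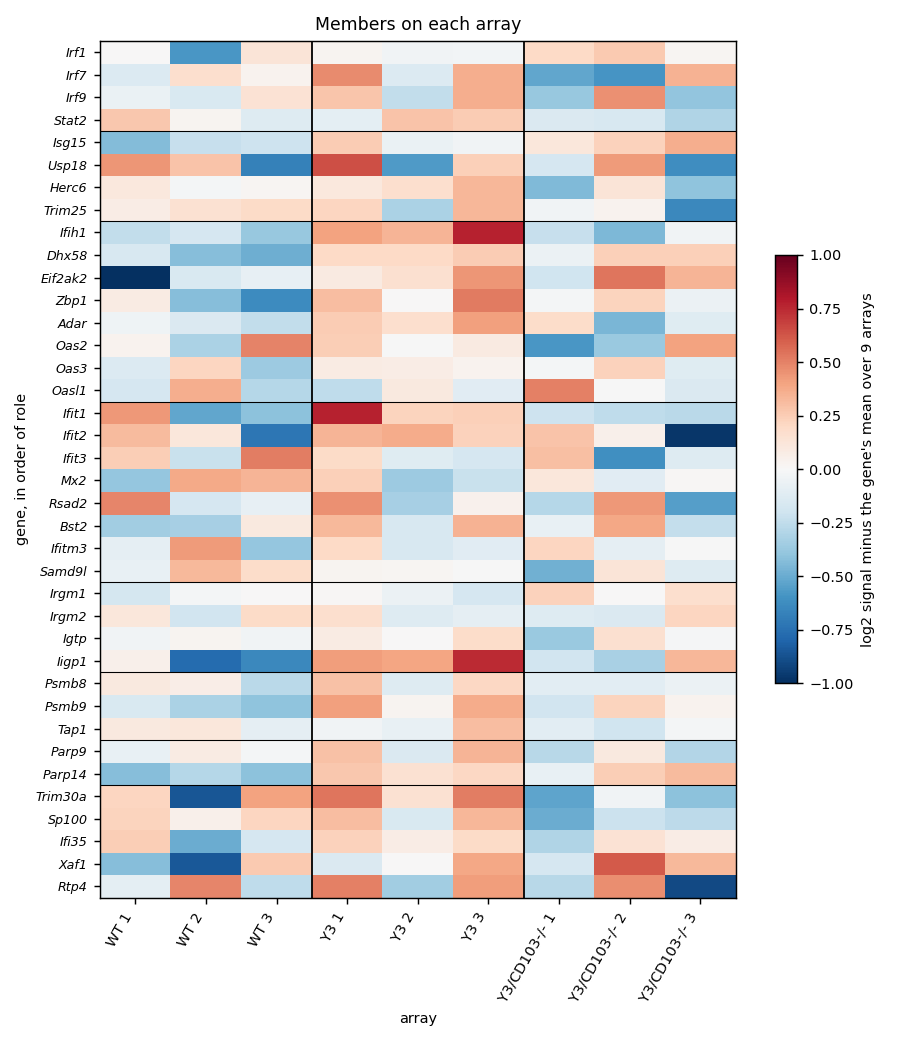
Log2 signal of the 38 tested members (rows, in order of role) on each of the 9 arrays (columns) as the difference from the gene's mean over the 9 arrays (colour scale, log2, clipped at 1 either way). The Y3 replicate 1 and 3 columns hold more red cells than the Y3 replicate 2 column, which was the lowest of its group for 27 of the 38 members.

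Members varied by array as well as by group. Y3 replicate 2 was the lowest of the 3 Y3 arrays for 27 of the 38 members, and for 55.8% of all tested genes. The mean of the members minus the mean of all tested genes was 0.40 ± 0.032 for the WT arrays, 0.50 ± 0.071 for the Y3 arrays and 0.39 ± 0.095 for the Y3/CD103-/- arrays (SD, n = 3), and Y3 replicate 2 and Y3/CD103-/- replicate 2 lay inside the range of the other Y3 group. Along the genome, 16 of the 44 members stand in 7 runs of neighbours (Ifit2 and Ifit3, Psmb9, Tap1 and Psmb8, Parp14, Dtx3l and Parp9 among them), so members are not independent of each other.

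The members can also be divided by the cores in their RefSeq promoters, as a description with no test. The 9 tested members without a promoter in the table are left out, and Iigp1, Parp14, Dhx58 and Zbp1, which were among the 9 higher in Y3, are 4 of them. In Y3 against WT the median difference was 0.10 over the 17 tested members with an ISRE core and 0.16 over the 12 without that core. In Y3/CD103-/- against WT it was -0.060 and -0.067, and in Y3/CD103-/- against Y3 -0.16 and -0.23. For the GAS core the medians were 0.23 over 10 members with it and 0.15 over 19 without in Y3 against WT, 0.036 and -0.15 in Y3/CD103-/- against WT, and -0.15 and -0.24 in Y3/CD103-/- against Y3. The ranges overlapped in each case.

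Upstream of these genes, the interferon-γ gene itself rose in both Y3 groups. Ifng read 3.72, 4.14 and 3.96 in WT, 5.53, 5.47 and 5.72 in Y3 and 4.93, 5.87 and 5.39 in Y3/CD103-/-. The arrays of both Y3 groups lay above the WT arrays, with a difference of 1.63 in Y3 (SE 0.23, adjusted p = 0.012) and 1.46 in Y3/CD103-/- (SE 0.23, adjusted p = 0.020). The first call was lost without Y3 replicate 1 (adjusted p = 0.080), without Y3 replicate 3 (0.093) and with those arrays averaged (0.082). The second was lost without WT replicate 1 (0.059), without Y3/CD103-/- replicate 3 (0.073) and in a fit of the 2 groups alone (0.092). Ifng was the only one of 9 tested ligand genes out of 21 listed that passed (0.79% and 0.836% of all genes did). At an unadjusted p under 0.05, 2 of the 9 were higher and 1 lower in Y3 (13.4% and 3.6% of all genes). In Y3/CD103-/- against WT the counts were 2 and 0 (7.9% and 5.35%), and between the Y3 groups 1 and 0 (1.78% and 8.12%). Ifna4 was the other higher gene against WT, by 0.71 in Y3 and 0.72 in Y3/CD103-/- (adjusted p = 0.231 and 0.280). Ifna12 was the lower one (-0.75, adjusted p = 0.134).

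Of the 6 receptor chains, 5 were tested and none passed in any comparison. At an unadjusted p under 0.05 the counts of higher and lower chains were 0 and 2 in Y3, 0 and 1 in Y3/CD103-/- against WT and 0 and 0 between the Y3 groups. The lower chains were 40% and 20% of the 5 in the comparisons with WT, where 3.6% and 5.35% of all genes were lower. Ifngr1, the ligand-binding chain for interferon-γ, read 10.19, 10.33 and 10.27 in WT, 9.91, 9.94 and 9.91 in Y3 and 10.00, 10.16 and 10.07 in Y3/CD103-/-. It differed from WT by -0.35 in Y3 (SE 0.14, adjusted p = 0.240) and -0.19 in Y3/CD103-/- (adjusted p = 0.608). Ifngr2, the signalling chain, read 7.02, 6.86 and 6.95 in WT, 6.42, 6.57 and 6.25 in Y3 and 5.95, 6.44 and 6.50 in Y3/CD103-/-. It differed from WT by -0.53 (SE 0.18, adjusted p = 0.191) and -0.65 (SE 0.18, adjusted p = 0.142). Both receptor genes were lower on every array of the Y3 groups than on any WT array. The type I receptor genes Ifnar1 and Ifnar2 differed between Y3 and WT by -0.24 and 0.084, and Il10rb, a chain of the type III receptor, by 0.0084. Ifnlr1, the other type III chain, was too dim, at 2.39 to 3.82.

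Downstream inhibitors were also followed. Socs3, a feedback inhibitor of JAK kinases, rose in Y3 by 0.91 (SE 0.17, adjusted p = 0.039), a call lost in 16 of 20 alternatives, and did not pass in Y3/CD103-/- (0.71, adjusted p = 0.092). Of 5 such inhibitors it was the only one that passed, where 0.79% of all genes were called in Y3 against WT. Socs1 differed from WT by 0.87 in Y3 (SE 0.18, adjusted p = 0.056) and by 0.57 in Y3/CD103-/- (SE 0.18, adjusted p = 0.189). Its arrays in both Y3 groups lay above every WT array. At an unadjusted p under 0.05, 2 of the 5 inhibitors (40%) were higher and 0 lower in Y3 against WT, where 13.4% and 3.6% of all genes were. In Y3/CD103-/- against WT 2 were higher and 1 lower (7.9% and 5.35% of all genes). Between the Y3 groups the counts were 0 and 1 (1.78% and 8.12% of all genes). None of the 6 tested genes of signal transduction and none of the 10 tested inducers of interferon passed in any comparison. At an unadjusted p under 0.05, in the order of the comparisons, 0 and 0, 0 and 1, and 0 and 1 genes of signal transduction were higher and lower, and 0 and 0, 1 and 0, and 0 and 1 of the inducers. The shares of all genes are those given beside the inhibitors. A further 43 interferon-stimulated genes outside the 44 gave 33 tested genes, of which 0 passed in each comparison in limma. Of those 33, 11 were higher and 0 lower in Y3 at an unadjusted p under 0.05, 5 and 2 in Y3/CD103-/- against WT, and 0 and 6 in Y3/CD103-/- against Y3, with median differences of 0.26, 0.041 and -0.20, which are 0.11, 0.0045 and -0.10 relative to the median of all genes. As shares of the 33 these are 33.3% higher and 0% lower in Y3 (13.4% and 3.6% of all genes), 15.2% and 6.06% in Y3/CD103-/- against WT (7.9% and 5.35%) and 0% and 18.2% between the Y3 groups (1.78% and 8.12%).

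Several markers of other cells that a sort can carry along had lower signals in Y3. The mean of 11 Treg and T cell markers stayed between 9.19 and 9.37 on the 9 arrays. The mean of 20 epithelial markers ran from 5.0 to 6.25 over the WT arrays, from 3.93 to 4.55 over the Y3 arrays and from 3.93 to 5.68 over the Y3/CD103-/- arrays. In Y3 against WT 18 of the 19 tested were lower, 9 of them at an unadjusted p under 0.05. Those 9 are 47.4% of the 19, where 3.6% of all genes were lower. The mean of 19 macrophage and dendritic cell markers ran from 4.14 to 4.68, from 3.91 to 4.01 and from 4.30 to 4.41 in the same order. In Y3 against WT 13 of the 16 tested were lower, of which 1, H2-Aa, passed the adjusted threshold. At an unadjusted p under 0.05, 8 of the 16 (50%) were lower and 1, Cd68, was higher, against 3.6% and 13.4% of all genes. Cd68 differed from WT by 0.77 in Y3 and by 0.74 in Y3/CD103-/- (adjusted p = 0.072 and 0.080). Its arrays in both Y3 groups lay above every WT array. In Y3/CD103-/- against Y3, at an unadjusted p under 0.05, 6 of these 16 were higher and 0 were lower, where 1.78% of all genes were higher and 8.12% lower. Of 7 tested B and plasma cell markers 6 were lower in Y3 against WT, 4 of them (57.1% of the 7) at an unadjusted p under 0.05, against 3.6% of all genes. The mean of the CD8, NK and innate lymphoid markers was 3.39 to 3.57 in WT and 3.44 to 3.62 in Y3. The mean of the stromal and endothelial markers was 3.27 to 3.48 in WT, 2.91 to 2.99 in Y3 and 3.01 to 3.41 in Y3/CD103-/-. Y3 lay below both other groups, by little in the case of Y3/CD103-/- replicate 3. These means were near the array medians (3.15 to 3.23), and only 3 of the 8 markers were bright enough to test. Of those 3, 1 was higher and 2 lower in Y3 against WT. At an unadjusted p under 0.05, 1 of them, Dcn, was lower (33.3%, against 3.6% of all genes). The mean of the plasmacytoid dendritic cell markers was 3.98 to 4.23, 3.69 to 4.01 and 3.83 to 4.18, with overlap. Of the 6 tested plasmacytoid markers, 4 were higher and 2 lower in Y3 against WT, with a median difference of 0.17. That is 0.020 above the median of all genes, and the lowest difference was that of Klk1 at -3.11. No marker read 0 on any array, so the absence of a cell type could not be read from these values. The part of any of these markers in the member differences was not tested. In a bulk sample fewer cells of a type and less RNA per cell cannot be told apart.

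**Figure D5:**
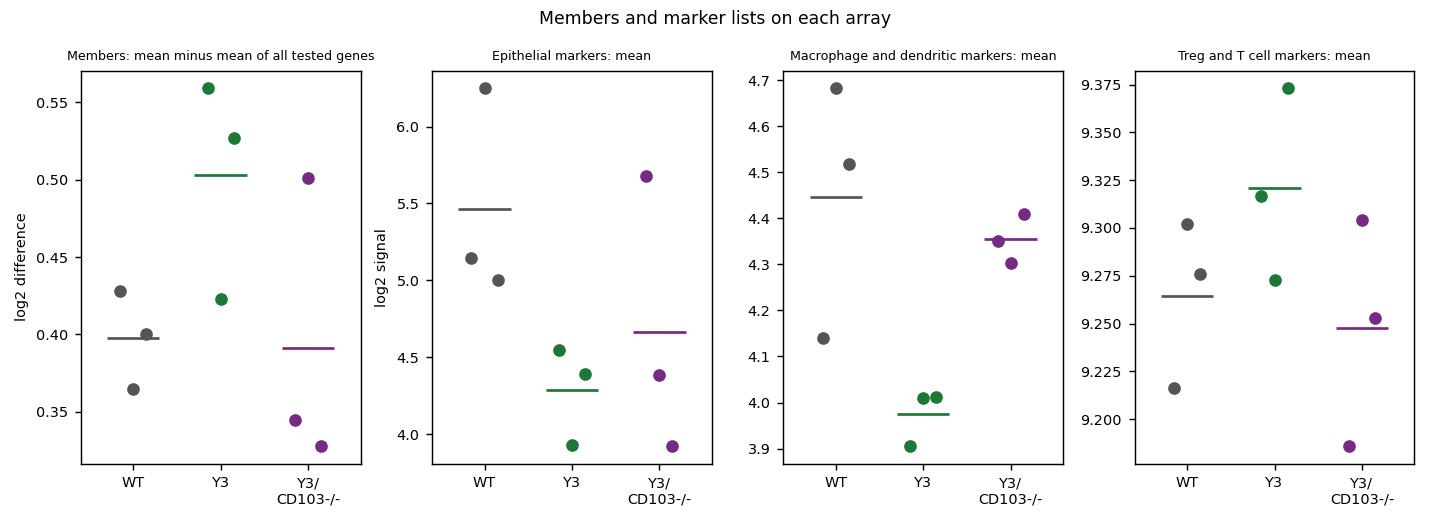
Mean log2 signal of the members minus that of all tested genes (first panel, log2 difference) and mean log2 signal of 3 marker lists (other panels) on each array (points), with group means (lines). The member panel shows Y3 means of 0.50 over 0.40 in WT and 0.39 in Y3/CD103-/- with overlapping arrays, while the epithelial and the macrophage and dendritic means are lowest in Y3.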

How the data were processed

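RNA of 9 sorted Treg samples, 3 per group, was amplified with a whole-transcriptome kit, biotin-labelled and hybridised (labels' protocols). The authors deposited log2 signals per array feature, obtained with RMA according to the submitters' processing notes. That they are log2 was judged by their range, 0.115 to 14.05. The RMA version and the genome build were not given in the sources used here. Of 39137 features, 23521 name 1 gene, and only those were used. The brightest feature stood for each of the 22180 genes, and genes above the median of their own array on at least 3 of 9 arrays were tested, which removed 9388. Group means were fitted over all 9 arrays with limma 3.58.1 (lmFit, eBayes) in R 4.3.3, 2-sided, with Benjamini-Hochberg adjustment within each comparison; errors are limma's standard errors. The fit was tested on simulated data. Array number limits the precision.

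Members, lists and roles were chosen with earlier results of these data known. Values on each array are given for members that passed, the 6 of smallest p in each comparison and, per role group, the member of highest mean, a level used for naming alone; dim members are given as ranges. From the pathway lists, interferon receptors, Ifng and genes that passed are named, and Itgae, Il2rb and Foxp3 serve as checks; the largest and smallest differences and the genes behind small counts are named too. Members without a feature of their own (3) were not tested. Alternatives changed the filter, the handling of several features, the scaling, the variance model, the weights, the arrays fitted, the replicate block and the threshold, and left out each array. One more, averaging Y3 arrays 1 and 3, was chosen after seeing the data. Promoter sequences are RefSeq's, matched by symbol.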

Additional observations from a re-analysis of the deposited data

How the results depend on the processing

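In both comparisons of Y3/CD103-/-, 0 members passed under each of the 20 alternatives run. In Y3 versus WT the count of 0 became 1 with genes required above the median on all 9 arrays (Ifih1), 4 with a trended, robust prior (Ifih1, Iigp1, Parp14 and Psmb9), 2 with array weights (Ifih1 and Parp14) and 1 at an adjusted p under 0.1 (Ifih1). With single arrays left out it ranged from 0 to 1, the 1 being Iigp1 without WT replicate 1. The smallest adjusted p of a member in that comparison lay between 0.031 and 0.313. The median difference of the members in Y3 versus WT was 0.0012 after quantile normalization and -0.0072 with arrays centred on their medians, and 0.11 to 0.33 with single arrays left out. In Y3/CD103-/- versus Y3 it was -0.054 with centred arrays and -0.32 to -0.13 with single arrays left out. The difference of Ifng between the Y3 groups changed sign (-0.41 to 0.061 with single arrays left out, the latter without Y3/CD103-/- replicate 1), and it had not passed. With single arrays left out, 12 of the 38 tested members changed sign in Y3 versus WT, 14 in Y3/CD103-/- versus WT and 11 in Y3/CD103-/- versus Y3. Irf1 in Y3 versus WT, for example, was -0.078 without WT replicate 2. The causes were not tested. Same-numbered arrays did not deviate together (r from -0.044 to 0.107 over 9 pairs), and the labels give the number no meaning. With the replicate number as a block, 0 members passed in each comparison, and the count of all genes called in Y3 versus WT went from 101 to 54. Over all alternatives that count lay between 8 and 346, against 17 to 309 in Y3/CD103-/- versus WT (107 as reported) and 1 to 10 in Y3/CD103-/- versus Y3 (1 as reported). Members at an unadjusted p under 0.05 numbered 5 to 12 higher in Y3 versus WT, 3 to 6 higher and 0 to 3 lower in Y3/CD103-/- versus WT and 1 to 11 lower in Y3/CD103-/- versus Y3.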
